A study of Mus musculus with 6 samples.

Results

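Heat shock chaperone genes were followed in ribosome footprints of activated and resting mouse CD4+ T cells. Ribosome profiling sequences the short mRNA fragments that ribosomes cover, and the deposited table counts such fragments per gene. The 7 genes were taken by a fixed list of Ensembl IDs, out of 22322 genes in the table, and each was found once. They encode 4 chaperones of the cytosol, Hsp90aa1 (ENSMUSG00000021270.12), Hsp90ab1 (ENSMUSG00000023944.13), Hspa4 (ENSMUSG00000020361.12) and Hspa8 (ENSMUSG00000015656.15), and 3 of the mitochondrial matrix, Hspa9 (ENSMUSG00000024359.8), Hspd1 (ENSMUSG00000025980.13) and Hspe1 (ENSMUSG00000073676.4). The names come from the list that defines the set, since the table carries IDs alone. There were 3 libraries of activated and 3 of resting cells, each group with replicates numbered 2, 3 and 4. All came from C57BL/6J females aged 6 weeks, and CD4+ cells of their spleen and lymph nodes were enriched by removing other cell types. The activated cells met beads that carry antibodies to CD3 and CD28, for a time not given in the sources used here. Both groups are labelled untreated at 0 h, which is before any inhibitor of transcription or translation in the wider study. Whether a library stands for 1 animal or a pool is not stated, so p-values speak of the spread among these libraries alone.

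Heat shock proteins of these classes fold newly made and damaged proteins, and most are present in unstressed cells as well. HSP70 proteins such as Hspa8 and Hspa9 bind and release unfolded stretches in a cycle of ATP hydrolysis. In the cytosol, exchange factors such as Hspa4 help this cycle. HSP90 proteins act later, on partly folded clients that include many kinases and steroid receptors. In mitochondria, Hspd1 and Hspe1 form a barrel and its lid in which imported proteins fold. T cells that leave quiescence grow in size and raise protein synthesis and mitochondrial content before they divide.

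Hspd1 and Hspe1 lie head to head on chromosome 1. In RefSeq on GRCm38.p6, the same genome as the mm10 build named by the submitters, Hspd1 spans chr1:55077833-55088243 and Hspe1 spans chr1:55088148-55091317, so the annotated genes overlap by 96 bases at their starts. Their common start region and the start region of Hspa4 are shown because the sequence table held no other start regions of the set. Whether a motif match goes with the size of a change in footprints was not tested. Each window runs from 250 bases before to 50 bases after an annotated start, 5′ to 3′ on the strand of the gene. It was searched for units of the heat shock element, the recognition motif of heat shock factors. Matches to 3 alternating units, GAANNTTCNNGAA or its reverse complement TTCNNGAANNTTC, are in capitals. Windows of 3 of the 7 genes were held in the sequence table, and those of Hsp90aa1, Hsp90ab1, Hspa8 and Hspa9 were not used here. The windows are chr1:55087898-55088197 on the plus strand for Hspe1, and chr11:53300430-53300729 on the minus strand for Hspa4.
Hspe1: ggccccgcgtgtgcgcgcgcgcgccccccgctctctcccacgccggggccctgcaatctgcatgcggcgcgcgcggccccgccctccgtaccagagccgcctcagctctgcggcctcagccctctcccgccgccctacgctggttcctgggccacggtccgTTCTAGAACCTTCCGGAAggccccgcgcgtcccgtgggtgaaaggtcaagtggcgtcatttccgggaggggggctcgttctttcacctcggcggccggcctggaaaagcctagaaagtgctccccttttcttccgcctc
Hspa4: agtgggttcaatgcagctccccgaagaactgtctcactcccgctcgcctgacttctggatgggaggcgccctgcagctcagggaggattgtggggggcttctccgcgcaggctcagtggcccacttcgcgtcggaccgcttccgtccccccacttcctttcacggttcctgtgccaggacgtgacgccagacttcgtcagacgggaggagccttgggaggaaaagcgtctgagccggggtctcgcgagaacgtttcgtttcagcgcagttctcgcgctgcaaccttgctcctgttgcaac

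The capitals in the Hspe1 window form a run of 18 bases at chr1:55088059-55088076, from 89 to 72 bases before the start of Hspe1, and hold 2 overlapping matches. The same bases lie in the window of 1 of the 2 annotated starts of Hspd1, on the other strand, from 144 to 127 bases before it. They lie inside the annotated span of Hspd1, past its other start at chr1:55088243. Matches to 3 units occur in 198 of 32851 such windows in the sequence table (0.603%). The shorter match of 2 units, GAANNTTC or TTCNNGAA, which each longer match contains, occurs in 4946 windows (15.1%). Neither letter pattern was found in the Hspa4 window or in the window of the other Hspd1 start. A match is a run of letters and not a measured binding site.

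CDS footprints of all 7 genes rose in activated cells, by 1.74-fold to 5.63-fold. The mitochondrial genes rose by 3.39-fold to 5.63-fold, led by Hspa9, and the cytosolic genes by 1.74-fold to 3.76-fold, led by Hspa8. Each passed edgeR's quasi-likelihood test at an adjusted p of 0.05 over all 6775 genes tested. Of those 6775 genes, 24.1% were called higher in activated cells. Values are in CPM, the counts of a gene per 1000000 counts of the library, scaled between libraries by TMM factors, and every direction is relative to that scaling. For each of the 7 genes every activated library lay above every resting library, which held for 28.1% of all genes tested. All 7 passed the filter on low counts, with at least 25 CDS counts in every library. The median log2 change was 1.76 over the 7 genes and -0.04 over all genes tested.

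**Figure D1:**
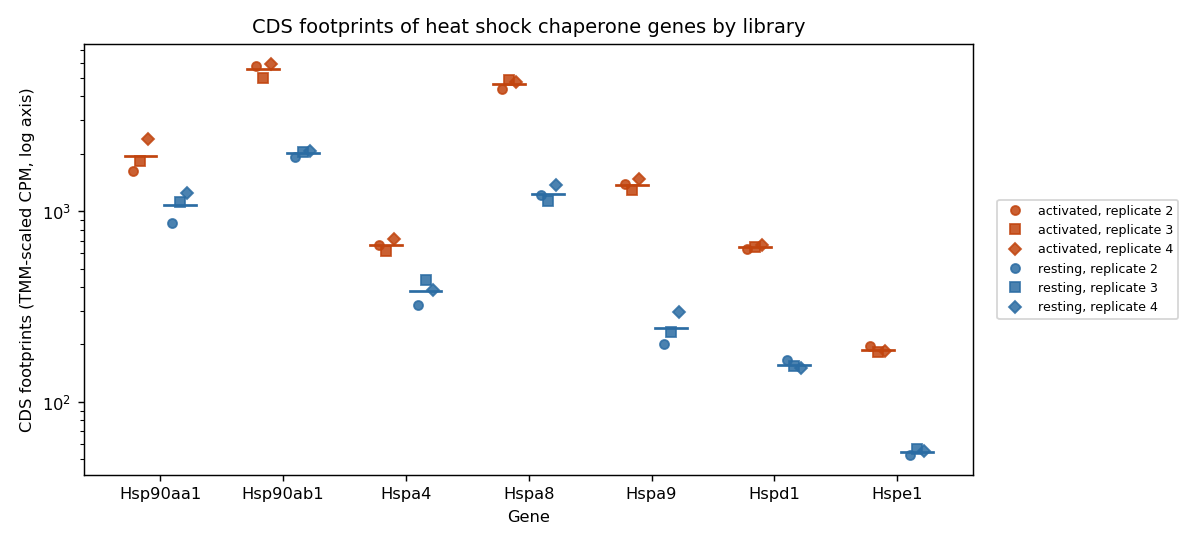
CDS footprints of each gene in CPM (TMM-scaled, log axis) in every library, activated left of resting, with lines at group means (n = 3 libraries each). For all 7 genes the activated libraries lie above the resting libraries, by the widest gap for Hspa9, whose lowest activated value is 4.33 times its highest resting value.

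Total CDS counts were 511483, 910575 and 1074656 in activated replicates 2, 3 and 4, and 437200, 565820 and 594508 in resting replicates 2, 3 and 4. TMM factors were 0.880 to 0.894 in activated and 1.12 to 1.13 in resting libraries, and scaling by library totals alone put the median gene at a log2 change of -0.38. The IDs of cell type markers and of co-chaperones could not be matched to symbols, so the labelled cell type was not checked against its markers here and the other genes of the chaperone network are not described. In bulk libraries, more cells of a kind and more footprints per cell cannot be told apart. No mRNA level was analysed here, so a change in footprints covers both the amount of an mRNA and the ribosomes on each copy. Lengths of coding sequences and UTRs were not used here, so CPM levels are compared within a gene. Where genes are set side by side further on, in shares, ratios or region counts, the counts are not corrected for length.

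Hsp90aa1, the stress-inducible cytosolic HSP90, had 1627, 1837 and 2397 CPM in activated replicates 2, 3 and 4, against 864.2, 1116 and 1250 CPM in resting replicates 2, 3 and 4. Replicate 2 was the lowest and replicate 4 the highest in both groups, and the lowest activated library was only 1.30 times the highest resting library. Its log2 change came to 0.86 (SE 0.18, edgeR adjusted p = 0.000872), while 17.2% of all genes tested had a higher one. Hsp90ab1, the constitutive cytosolic HSP90, had 5765, 4988 and 5930 CPM in activated replicates 2, 3 and 4, against 1909, 2032 and 2075 CPM in resting replicates 2, 3 and 4. The resting libraries lay close together, and the groups were 2.40-fold apart at their nearest values. Its log2 change was 1.47 (SE 0.15, edgeR adjusted p = 8.75e-07).

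Hspa8, the constitutive cytosolic HSP70 also called Hsc70, had 4342, 4836 and 4757 CPM in activated replicates 2, 3 and 4, against 1211, 1124 and 1366 CPM in resting replicates 2, 3 and 4. All activated values were at least 3.18 times the highest resting value. The log2 change of 1.91 was the highest of the cytosolic genes (SE 0.15, edgeR adjusted p = 6.45e-08), and 4.66% of all genes had a higher one. Hspa4, a relative of HSP70 in the HSP110 class that exchanges its nucleotide, had 661.2, 616.0 and 717.5 CPM in activated replicates 2, 3 and 4, against 323.8, 436.3 and 384.3 CPM in resting replicates 2, 3 and 4. The groups were apart by 1.41-fold at their nearest values, between activated and resting replicate 3. Its log2 change of 0.80 was the lowest of the 7 (SE 0.15, edgeR adjusted p = 0.000454), and 18.7% of all genes had a higher one.

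Hspa9, the mitochondrial HSP70 also called mortalin, which takes part in import and folding in the matrix, had 1379, 1285 and 1467 CPM in activated replicates 2, 3 and 4, against 201.9, 232.0 and 296.7 CPM in resting replicates 2, 3 and 4. The resting libraries differed more among themselves than the activated ones in proportion to their mean, with resting replicate 4 the highest. The log2 change was 2.49 (SE 0.17, edgeR adjusted p = 1.21e-08), higher than in all but 161 of the genes tested. Hspd1, the HSP60 barrel, had 634.0, 646.1 and 663.2 CPM in activated replicates 2, 3 and 4, against 166.1, 154.1 and 150.6 CPM in resting replicates 2, 3 and 4. Both groups were tight, at 647.8 ± 14.7 CPM in activated and 156.9 ± 8.13 CPM in resting cells (SD, n = 3). Its log2 change was 2.05 (SE 0.15, edgeR adjusted p = 2.27e-08).

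Hspe1, the HSP10 lid of that barrel, had 195.4, 182.3 and 184.2 CPM in activated replicates 2, 3 and 4, against 52.6, 56.8 and 55.3 CPM in resting replicates 2, 3 and 4. The groups were 3.21-fold apart at their nearest values, although the resting values rest on 25, 35 and 36 counts. The log2 change was 1.76 (SE 0.18, edgeR adjusted p = 8.36e-07). RefSeq lists 5 pseudogenes named after Hspd1, 7 named after Hspe1 and 1 named after Hspa9. Records that align to more than 1 place are kept out of the gene counts, so the levels of these 3 genes, and of other genes with near copies, are uncertain. Whether such losses differ between groups was not tested.

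Of the 7 genes, 5 rose by at least 2-fold, against 14.7% of all genes tested that were called and at least 2-fold higher. Hspa9 and Hspd1 rose by at least 4-fold, against 4.22% of all genes. With library totals alone in place of TMM factors all 7 were still called higher, but Hsp90aa1 and Hspa4 moved by more than 1.5 times, to log2 changes of 0.52 and 0.46 (edgeR adjusted p = 0.0207 and 0.0177). Relative to the median gene in that scaling, at -0.38, these distances are close to those under TMM factors.

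**Figure D2:**
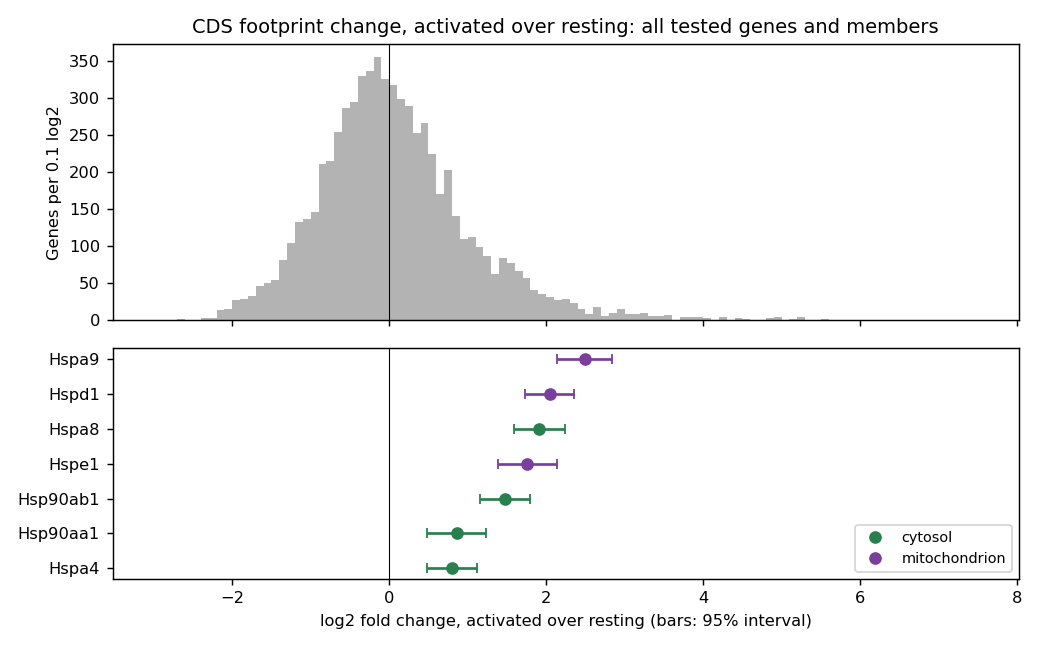
Log2 fold changes of CDS footprints, activated over resting. The upper panel counts all 6775 genes tested in steps of 0.1, and the lower panel gives the 7 genes with 95% intervals from the edgeR fit, coloured by compartment; all 7 intervals lie above 0, from Hspa4 at 0.80 to Hspa9 at 2.49.

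Together the 7 genes held 1.26%, 1.26% and 1.41% of all CDS counts in activated replicates 2, 3 and 4, against 0.514%, 0.561% and 0.610% in resting replicates 2, 3 and 4. The share averaged 1.31 ± 0.09% in activated and 0.562 ± 0.048% in resting cells (SD, n = 3), 2.33 times as high in activated cells. The groups did not overlap (exact two-sided permutation p = 0.1, the smallest that 3 against 3 libraries can give, and 0.1 after adjustment over 6 such tests). The make-up of this share differed between the groups as well. Hsp90aa1 held 12.9 ± 1.87% of the counts on the 7 genes in activated and 20.8 ± 2.20% in resting cells (SD, n = 3). Hspa9 held 9.16 ± 0.26% in activated and 4.70 ± 0.55% in resting cells. Hsp90ab1 held the most in both, at 37.0 ± 2.41% in activated and 39.0 ± 1.63% in resting cells, and the groups overlapped.

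Ratios between genes within a library do not depend on the scaling between libraries, and 5 of them were compared. The sum of the 3 mitochondrial genes was 17.8, 17.2 and 16.8 counts per 100 counts of the 4 cytosolic genes in activated replicates 2, 3 and 4, against 9.76, 9.40 and 9.90 in resting replicates 2, 3 and 4. This ratio was 1.78 times as high in activated as in resting cells (log2 difference 0.83, exact permutation p = 0.1, adjusted 0.1). All 5 ratios gave the same p, the smallest the design allows, so none can reach 0.05 and their sizes are set beside the spread between libraries. Groups without overlap are common for such ratios, at 55.2% of all pairs of genes with a CDS count in every library. No such figure was computed for ratios of sums or for the share of a set of genes.

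Hsp90aa1 had 28.2, 36.8 and 40.4 counts per 100 counts of Hsp90ab1 in activated replicates 2, 3 and 4, against 45.3, 54.9 and 60.2 in resting replicates 2, 3 and 4. Footprints of both HSP90 genes rose, while every activated library had the lower ratio of the inducible to the constitutive form (log2 difference -0.61, exact permutation p = 0.1). Within each group this ratio was lowest in replicate 2 and highest in replicate 4. Hspa4 had 15.2, 12.7 and 15.1 counts per 100 counts of Hspa8 in activated replicates 2, 3 and 4, against 26.7, 38.8 and 28.1 in resting replicates 2, 3 and 4. The ratio of the exchange factor to the HSP70 was lower in every activated library, by a log2 difference of -1.11 (exact permutation p = 0.1).

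Hspd1 had 3.24, 3.54 and 3.60 counts per Hspe1 count in activated replicates 2, 3 and 4, against 3.16, 2.71 and 2.72 in resting replicates 2, 3 and 4. The ratio of this pair with the common start region differed by 0.28 on the log2 scale (exact permutation p = 0.1), and activated replicate 2 and resting replicate 2 lay close together. The difference depended on the counting column, at 0.45 with CDS counts in intersection-nonempty mode and 0.50 with all exons. Hspa9 had 2.18, 1.99 and 2.21 counts per Hspd1 count in activated replicates 2, 3 and 4, against 1.22, 1.51 and 1.97 in resting replicates 2, 3 and 4. Its lowest activated library was just above its highest resting library, and the log2 difference of 0.47 (exact permutation p = 0.1) came to 0.30 without resting replicate 2.

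**Figure D3:**
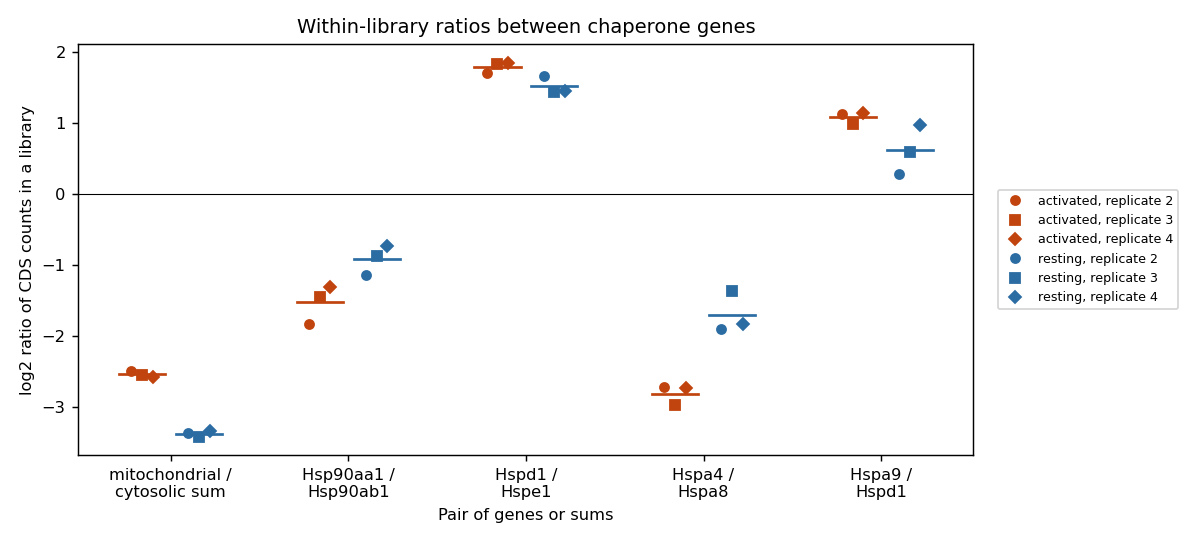
Log2 ratios of CDS counts between genes of the set in each library, activated left of resting, with lines at group means (n = 3 each). The ratio of mitochondrial to cytosolic counts averages -2.53 in activated and -3.37 in resting cells with little spread, and the Hspa9 to Hspd1 ratio has its groups closest to touching.

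In the order of the log2 changes, Hspa9 came first, then Hspd1, Hspa8, Hspe1, Hsp90ab1, Hsp90aa1 and Hspa4. Of the 6 neighbouring pairs in that order, 3 had ratios that overlapped between the groups, namely Hspd1 with Hspa8, Hspa8 with Hspe1, and Hsp90aa1 with Hspa4. Among all 21 pairs these same 3 overlapped and 18 did not. Over all pairs of genes with a CDS count in every library, 55.2% of ratios did not overlap. The genes nearest to the set in pattern, by the Euclidean distance of centred log2 CPM over the 6 libraries from the median of the 7 genes, were ENSMUSG00000057541.13 at 0.154 and ENSMUSG00000024493.8 at 0.169, among 6775 genes compared. Hspe1 itself was at 0.0711, and Hsp90aa1 was farthest of the 7 at 1.14. With 6 libraries in 2 groups, this likeness mostly follows the size of the change between the groups.

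Footprints in the 5′ UTR were higher in activated cells too. Tested alone, 5′ UTR counts rose for 6 of the 7, against 22.2% of the 2200 genes tested, and the exception was Hsp90aa1, with 44 counts in activated and 15 in resting cells (log2 change 0.89, edgeR adjusted p = 0.195). The change was highest for Hspa9, with 148 counts in activated and 12 in resting cells (log2 change 3.07, SE 0.39, edgeR adjusted p = 2.85e-05). Relative to the CDS, 0 of the 7 genes changed in edgeR's quasi-likelihood test, and 0 of them had an unadjusted p under 0.05. Of all 3169 genes tested, 0.631% were called, and 369 had an unadjusted p under 0.05. The 95% intervals were wide: the log2 change relative to the CDS lay between -0.95 and 0.99 for Hsp90aa1, and between -0.68 and 0.57 for Hspa8.

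Without correction for length, the genes differed in how much of their footprint lay in the 5′ UTR. Hspa4 had 41.2, 19.2 and 16.5 counts in its 5′ UTR per 100 CDS counts in activated replicates 2, 3 and 4, against 9.74, 16.4 and 13.6 in resting replicates 2, 3 and 4. The groups did not overlap, but activated replicate 4 lay just above resting replicate 3, and the distance came mainly from activated replicate 2. That library also had the highest 5′ UTR level over all genes, at 20.02 per 100 CDS counts, against 14.0 to 15.5 in the other libraries. For Hspa4 the log2 change relative to the CDS was 0.48 (SE 0.30, 95% interval -0.13 to 1.09, edgeR adjusted p = 0.562), and 0.22 without activated replicate 2. The part of that library in the Hspa4 values was not tested further. How many of all genes had groups apart on this measure was not counted.

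Hspe1 had 31.4, 24.1 and 21.4 counts in its 5′ UTR per 100 CDS counts in activated replicates 2, 3 and 4, against 20, 34.3 and 38.9 in resting replicates 2, 3 and 4. The groups overlapped (log2 change -0.66, SE 0.38, edgeR adjusted p = 0.521). Its annotated start overlaps Hspd1, and without a stated strand setting, records there cannot be assigned with certainty. The other 5 genes had means of 0.954 to 5.37 counts per 100 CDS counts in activated and 1.006 to 4.78 in resting cells. In every library these 5 were below the level over all genes, which was 13.97 or more in every library.

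A further readout was taken from the 2 CDS columns of the table, after the data had been seen. Counts in intersection-nonempty mode exceed those in the first CDS column by records that the stricter column leaves out, here called added counts. What separates the modes is not described in the sources used here beyond the column names. For each gene of the set, CDS, 5′ UTR, 3′ UTR and added counts together equalled or nearly equalled its exon count. Hspa8 in activated replicate 2 had 1911, 51, 0 and 108 of these, beside 2070 exon counts. The added counts thus lay in exons and in none of those other columns, and their place along the exon is not given. Over all genes there were 8.38 to 9.73 added counts per 100 CDS counts in activated and 10.9 to 11.9 in resting libraries. For Hspa8 there were 5.65, 5.98 and 8.26 in activated replicates 2, 3 and 4, against 13.5, 14.4 and 16.9 in resting replicates 2, 3 and 4. The groups did not overlap, and resting values were above the level over all genes of their own libraries while activated values were below it. Relative to the CDS the log2 change was -1.06 (SE 0.26, 95% interval -1.58 to -0.54), which missed the threshold (edgeR adjusted p = 0.0573, unadjusted p = 0.000168). With a library left out, the adjusted p ranged from 0.00764 without activated replicate 4 to 0.397 without activated replicate 3. Over all alternatives run it ranged from 0.000161 with the replicate number as a block to 0.511 with a minimum of 1 added count in place of 30, so the call depends on the libraries, the model and the filter.

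Of the 2390 genes tested on added counts, 0.209% were called, and 0 of the 7 genes were among them in edgeR's test (1 of the 7 at an unadjusted p under 0.05, Hspa8). Relative to the CDS, and without correction for length, Hspe1 had the most added counts of the 7. It had 22.1, 23.4 and 20.8 per 100 CDS counts in activated replicates 2, 3 and 4, against 28.0, 34.3 and 50.0 in resting replicates 2, 3 and 4. Its groups did not overlap, but the resting values rest on 7, 12 and 18 added counts (log2 change -0.66, SE 0.39, edgeR adjusted p = 0.531). For the other 5 genes the groups overlapped. How many of all genes tested had groups apart on added counts was not counted. The level over all genes was itself higher in every resting library than in every activated library. With intersection-nonempty counts in place of the first CDS column, the CDS change was 1.84 for Hspa8 and 1.62 for Hspe1, and both were still called.

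**Figure D4:**
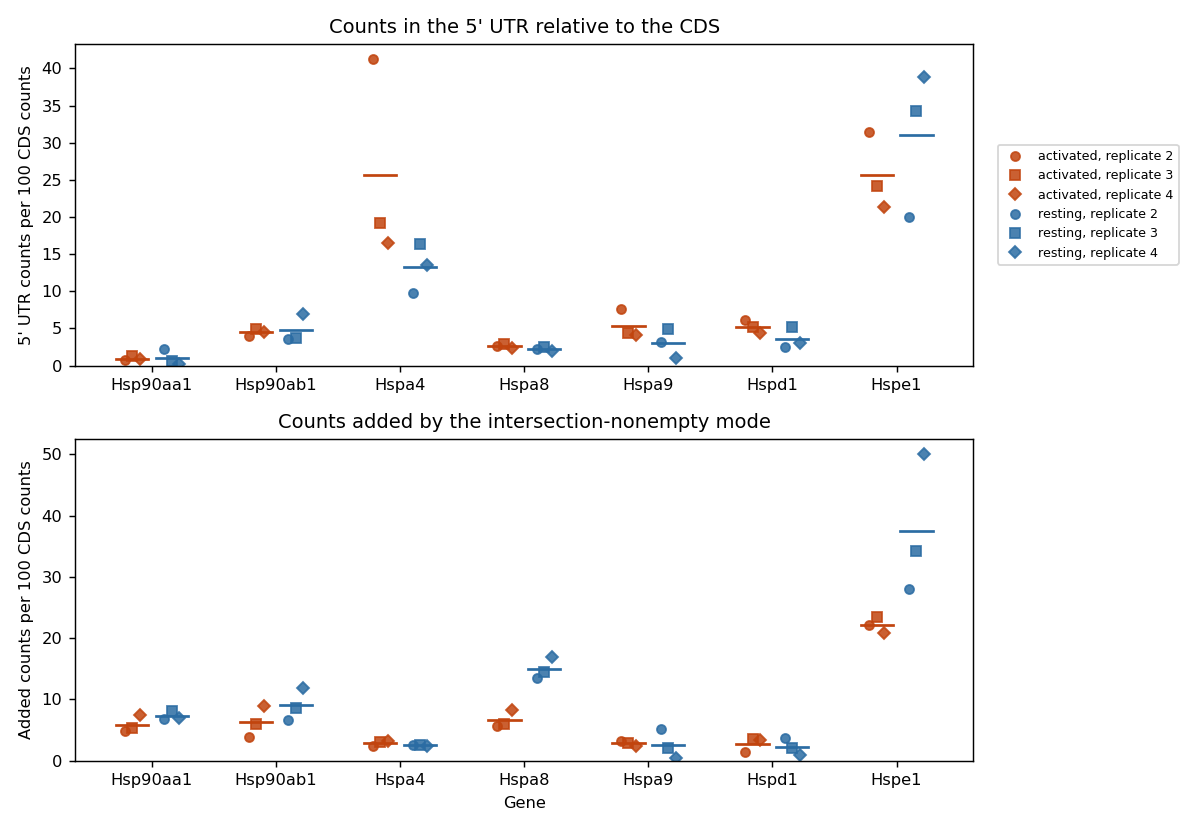
Counts per 100 CDS counts in each library, activated left of resting, with lines at group means (n = 3 each); the upper panel plots the 5′ UTR and the lower panel the counts added by the intersection-nonempty mode. Activated replicate 2 stands apart for Hspa4 in the upper panel at 41.2, and the groups of Hspa8 are apart in the lower panel.

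The 3′ UTRs of the 7 genes held few footprints, with 27 counts beside 33014 CDS counts in activated cells and 17 beside 9054 in resting cells. Per 100 CDS counts of the same genes that is 0.0462 to 0.140 in activated and 0.0827 to 0.445 in resting libraries. Over all genes, libraries had 1.39 to 4.29 in activated and 2.22 to 4.46 in resting cells.

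Intronic counts lay mostly in Hspa8, with 324 of 386 over all libraries. Hspa8 had 48, 42 and 57 intronic counts in activated replicates 2, 3 and 4, against 88, 33 and 56 in resting replicates 2, 3 and 4. The groups overlapped, and the log2 change was -0.43 (SE 0.42, edgeR adjusted p = 0.511), while CDS footprints of the same gene rose. Per 100 CDS counts there were 2.51, 1.09 and 1.28 intronic counts in activated replicates 2, 3 and 4, against 15.3, 4.76 and 6.30 in resting replicates 2, 3 and 4. Over all genes there were 7.31, 6.94 and 10.3 in activated replicates 2, 3 and 4, against 9.22, 25.1 and 16.4 in resting replicates 2, 3 and 4. RefSeq places 3 small nucleolar RNA genes, Snord14c, Snord14d and Snord14e, inside Hspa8 at chr9:40801276-40805202. These RNAs guide the modification and processing of ribosomal RNA. Their part in the intronic counts was not tested. Hspa9 had 12 intronic counts in activated and 25 in resting cells, and RefSeq places 2 small nucleolar RNA genes inside it as well. Hspd1 and Hspe1 had 0 intronic counts in every library, while Hsp90aa1 had 2, Hspa4 had 5 and Hsp90ab1 had 18 over all libraries.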

How the data were processed

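The authors deposited raw counts per gene for 6 libraries in 36 columns, which per the file headers hold coding sequence in 2 counting modes, the 5′ UTR, the 3′ UTR, exons and introns. Per the submitters' processing notes, the tools were TopHat2 2.0.13, Bowtie 1.1.1.0 and HTSeq, on mm10. No label or header states the annotation release, trimming or strand setting. Columns were tied to samples by the library number in the labels' descriptions. Summary rows were kept out of all tests. Of all records in the first CDS column, summary rows included, 65.8% to 79.6% were not uniquely aligned and 11.8% to 14.5% lay in no CDS.

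The main test of CDS counts over all genes was the quasi-likelihood test of edgeR 4.0.16, run in R 4.3.3 (TMM, filterByExpr, glmQLFit, glmQLFTest, two-sided, Benjamini-Hochberg over all genes tested). SE is the log2 change over the square root of F. Counts of a region relative to the CDS were tested in 1 model with a term per library, a region term and a region-by-activation term, each region with its own TMM scaling, for genes with at least 30 region counts over the libraries. Ratios and shares were tested by exact permutation over 20 assignments. DESeq2 1.42.0 and limma 3.58.1 (voom) were alternatives. The CDS test and the test of the 5′ UTR relative to the CDS were tried on simulated data, and the other tests were not. The genes and lists were chosen with earlier results of these data known. All 7 genes are described by rule. Lists of co-chaperones and cell type markers, set by symbol, could not be used because 0 genes of the reference table carry Ensembl IDs. Tests of the 5′ UTR alone, of introns and of added counts were added after the data were seen. The replicate numbers were not used as pairs in the main tests. Deviations of same-numbered libraries correlated at 0.13, 0.074 and 0.23, above the -0.16 to 0.0075 between libraries of different number. Whether the numbers mark pairs is not stated, so a fit with the replicate number as a block was run as an alternative.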

Additional observations from a re-analysis of the deposited data

How the results depend on the processing

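All 7 genes were called higher in the CDS under each of the 16 alternatives run (RLE, upper quartile factors, library totals alone, DESeq2, limma voom, no low-count filter, both other counting columns, each library left out, the replicate block and the older quasi-likelihood fit, which was added after seeing the data). The 112 changes of single genes all stayed positive and past the threshold, with 0.0207 as the largest adjusted p. Leaving out each library gave log2 changes of 0.72 to 1.0 for Hsp90aa1, 0.70 to 0.92 for Hspa4 and 2.38 to 2.66 for Hspa9. The 5′ UTR relative to the CDS gave 0 genes under every alternative run, and the 5′ UTR alone gave 4 to 6 of 7 with a library left out. For added counts, all of whose alternatives were chosen after seeing the data, 1 gene, Hspa8, was called with 1 scaling for both regions (log2 change -1.18, edgeR adjusted p = 0.0265) and with the replicate block (-1.05, edgeR adjusted p = 0.000161), 0 genes with a minimum of 1 added count (Hspa8 at -0.99, edgeR adjusted p = 0.511), and 0 to 1 genes with a library left out (Hspa8 at -1.22 to -0.99). The cause was not tested. Replicate numbers were not used as pairs in the main tests. With the replicate block the main CDS, 5′ UTR and ratio results kept their direction, and the permutation over 3 pairs gave p = 0.25, the smallest it allows. Without each library, the difference in the share of the 7 genes was 0.695 to 0.771 percentage points, and the log2 ratio differences were 0.81 to 0.85 for mitochondrial over cytosolic counts, -0.73 to -0.46 for Hsp90aa1 over Hsp90ab1, 0.24 to 0.35 for Hspd1 over Hspe1, -1.21 to -0.94 for Hspa4 over Hspa8, and 0.30 to 0.65 for Hspa9 over Hspd1. Depth limits the regions outside the CDS: per gene, resting cells had 10 to 174 counts in the 5′ UTR, 6 to 330 added counts and 0 to 6 counts in the 3′ UTR, and of the 7 genes Hspa8 alone passed the low-count filter in introns.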
